A study of Rattus norvegicus with 16 samples.

Results

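The Slc25 genes encode the mitochondrial carriers, and they were followed here across 3 groups of rat skeletal muscle. Members were the rows of the deposited gene table whose symbol is Slc25a followed by a number, 43 of 31141 rows, of which 41 are annotated as protein-coding and 2 (Slc25a33 and Slc25a52) as pseudogenes. Of the 43, 31 reached at least 1 FPKM (a level corrected for gene length and for library depth) in at least 4 of the 16 libraries and were tested among 12119 genes that passed the same filter. RefSeq also lists Slc25a3, Slc25a14, Slc25a16, Slc25a34, Slc25a43 and Slc25a51, which no row carried as a symbol and which are not analysed here. The libraries came from poly-A RNA of the tibialis anterior, a shin muscle, of Wistar-Imamichi rats. WT_ND (4 libraries) were wild-type rats on a normal diet. DMD_ND (6 libraries) were rats with a mutated Dmd gene, which encodes dystrophin and is the gene lost in Duchenne muscular dystrophy, on the same normal diet. DMD_KD (6 libraries) were Dmd-mutant rats fed MCTKD, a ketogenic diet containing medium-chain triglycerides. Rats were fed from weaning and sampled when 9 months old. No ketogenic diet was given to wild-type rats, so an effect of diet could be examined in the mutant alone. The labels give neither the Dmd allele nor the rats behind each library, and p-values therefore rest on the spread of these libraries, which may be technical.

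The inner mitochondrial membrane lets few metabolites pass, and Slc25 proteins carry most of those that do. Each is built from repeats of a short membrane module and usually exchanges a substrate inside the matrix for another outside it. In muscle the family is known above all for exporting ATP in exchange for ADP. Other members bring in acylcarnitines for fat oxidation, pass reducing equivalents from glycolysis through the malate-aspartate shuttle, and supply coenzyme A, iron, glutathione and nucleotides to the matrix. Many carriers come as paralogs, a form of fibres, heart or brain beside one found more widely or in dividing cells.

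Depth was 17125084 to 28116085 reads assigned to genes per library, and the tested members rested on 14 to 88928 reads each. Dmd read 4.13 to 11.9 FPKM in WT_ND, 1.37 to 1.98 in DMD_ND and 0.546 to 2.04 in DMD_KD, so in deposited FPKM every library labelled mutant lay below every wild-type library. With every library brought to the same total, wild-type and mutant libraries overlapped for Dmd. The muscle label held: markers of mature fibres such as Ckm and Acta1 summed to at least 28840 FPKM in every library. Libraries stood apart within groups. DMD_KD 3 lay at 57.5 on the second principal component, with the other 15 libraries between -30.1 and 18.8. It was the highest DMD_KD library for 14 and the lowest for 10 of the 31 tested members, against 36.2% and 37.8% of all tested genes. WT_ND 1 and 4 lay together and apart from WT_ND 3 and 9: both of the former were above both of the latter in 12 of the 31 members and below them in 11, against 38.3% and 28.6% of all tested genes. Calls lost or gained without these libraries are given beside the results they touch.

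Slc25a4, the ADP/ATP carrier of heart and skeletal muscle, outweighed the rest of the family in every library. It made up 81.6% to 83.1% of the summed family FPKM in WT_ND, 73.6% to 79.4% in DMD_ND and 76.0% to 80.2% in DMD_KD. By mean FPKM over all 16 libraries it was followed by Slc25a11, Slc25a12 and Slc25a20, the carriers of oxoglutarate and malate, of aspartate and glutamate, and of acylcarnitines. The first 3 places were the same in the 3 groups. Slc25a5, the second ADP/ATP carrier, moved from place 10 in WT_ND to place 4 in DMD_ND and 5 in DMD_KD, and Slc25a25 from place 5 to places 11 and 9. The summed FPKM of the family averaged 5024 ± 693 (SD) over the 4 wild-type libraries. It averaged 1948 ± 253 over the 6 DMD_ND libraries and 2524 ± 483 over the 6 of DMD_KD, a ratio of 2.58 between wild type and DMD_ND. Without Slc25a4 that ratio was 1.99. Both ratios are on the deposited scaling. The FPKM of all genes summed to 623029 to 995390 in WT_ND libraries and to 368688 to 424101 in DMD_ND libraries. Both ratios would therefore be smaller with every library brought to the same total, and the ratio without Slc25a4 need not show a fall there. At equal totals the median tested member stood 0.34 higher in DMD_ND than in WT_ND on the log2 scale, and the median of all tested genes 0.83 higher. These are bulk samples, in which fewer muscle fibres and less RNA per fibre cannot be told apart.

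**Figure D1:**
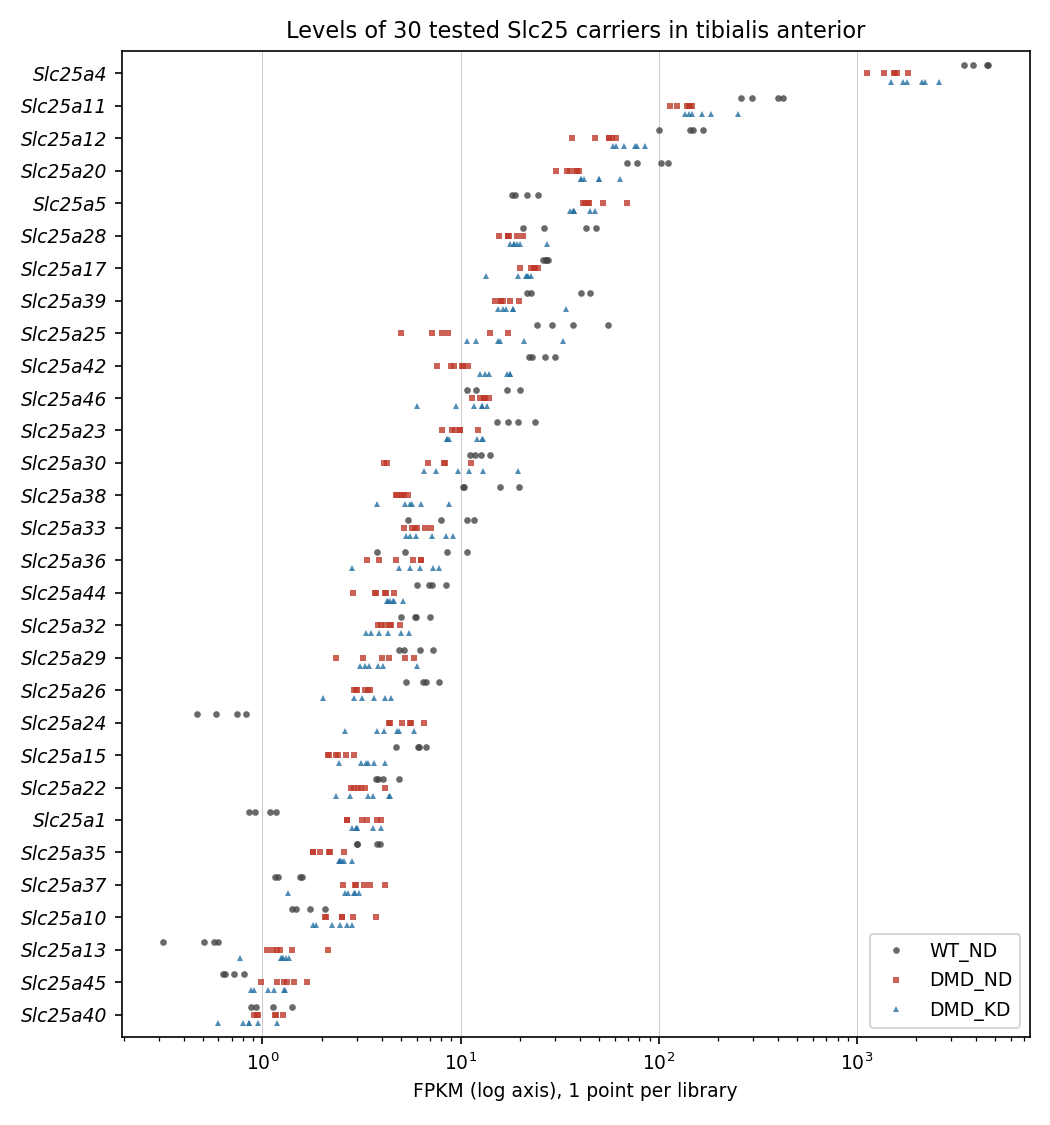
Level of 30 of the 31 tested Slc25 carriers in FPKM (log axis), with 1 point per library, for WT_ND (n = 4), DMD_ND (n = 6) and DMD_KD (n = 6), ordered by the mean over all libraries. Slc25a4 lies far to the right of all others, and the WT_ND points lie to the left of every mutant point for Slc25a1, Slc25a5, Slc25a13, Slc25a24 and Slc25a45.

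In the mutant on normal diet most carriers were lower than in wild type. Of the 31 tested members, 19 were lower in DMD_ND than in WT_ND, 7 were higher and 5 were not called (limma, adjusted p under 0.05). Over all 12119 tested genes 34.3% were lower and 31.5% higher. The median member stood at -0.52 on the log2(FPKM + 1) scale, where the median of all tested genes was -0.04. Among the lower members were Slc25a4, a11, a12, a15, a20, a23, a25, a26, a28, a29, a30, a32, a33, a35, a38, a39, a42 and a44, and the higher ones Slc25a1, a5, a10, a13, a24, a37 and a45. DMD_ND and WT_ND libraries did not overlap for 7 members on the higher side and 17 on the lower side, against 26.8% and 28.3% of all tested genes. Slc25a13, a24 and a45 were below 1 FPKM in all 4 wild-type libraries and Slc25a1 in 2 of them. These carriers passed the filter only through the mutant libraries, where they are high, so their rises and the counts that include them are descriptions. Without WT_ND 1 and 4, 6 members were higher and 15 lower, 14 of them among the 19, and without WT_ND 3 and 9 there were 7 and 17. Over all genes 3490 were higher and 3251 lower of 11977 without WT_ND 1 and 4. Without WT_ND 3 and 9 these were 3737 and 4096 of 11936.

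The direction of many of the lower members depended on how libraries were scaled. The deposited FPKM had been scaled by size factors that set the typical gene equal between libraries. With every library brought to the same total (TPM), the median of all tested genes stood 0.83 higher in DMD_ND than in WT_ND on the log2 scale, 12 members were higher and 6 lower, where 70.7% of all tested genes were higher and 5.94% lower, and the members' median was 0.34. The 6 lower under both scalings were Slc25a4, a11, a12, a20, a25 and a38. All 7 higher members were higher under both. TPM raises DMD_ND values against WT_ND, so their direction could not change and this is no check of them. Slc25a17, a22, a40 and a46 were among those called higher under TPM alone.

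**Figure D2:**
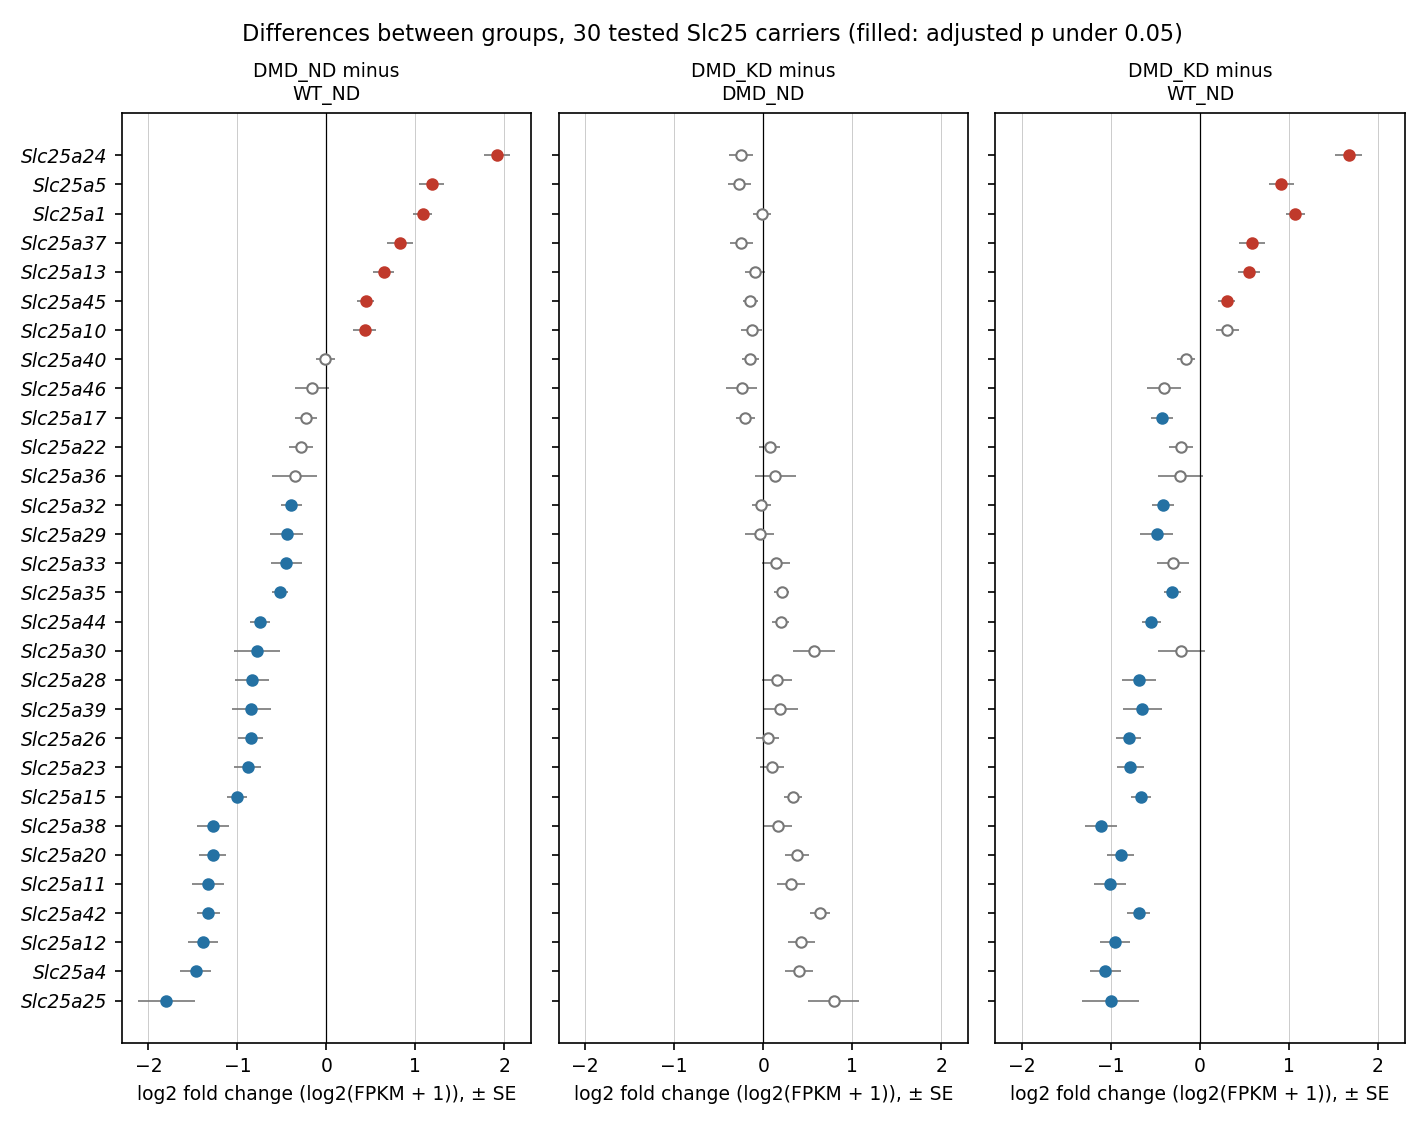
Difference between groups for 30 of the 31 tested carriers, as log2 fold change on the log2(FPKM + 1) scale with its standard error, ordered by DMD_ND minus WT_ND. Filled points passed an adjusted p of 0.05: 7 higher and 18 lower on the left, none in the middle panel for diet, and 6 higher and 17 lower on the right.

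Markers of some other cell types moved with the genotype too. All 8 macrophage markers were higher in DMD_ND than in WT_ND, with summed levels of 22.3 to 56.4 FPKM in WT_ND, 370 to 776 in DMD_ND and 336 to 552 in DMD_KD. All 6 markers of fibro-adipogenic progenitors and fibroblasts (82.2 to 211, 1276 to 2012 and 925 to 1466 FPKM) and all 5 adipocyte markers (11.7 to 36.4, 113 to 486 and 77.0 to 227 FPKM) were higher as well. Of 7 fibre markers 6 were lower in DMD_ND on the deposited scaling, with a median log2 difference of -1.24 over the 7. These falls would be smaller with every library brought to the same total. The median of all tested genes then stood 0.83 higher in DMD_ND. Endothelial markers did not rise on the deposited scaling: of 5 tested, 0 were higher, 2 lower and 3 not called in DMD_ND. They summed to 48.3 to 63.2 FPKM in WT_ND, 37.3 to 56.5 in DMD_ND and 44.35 to 56.1 in DMD_KD. With every library brought to the same total, the DMD_ND sums would stand higher against WT_ND than these values show. None of the 4 T and B lymphocyte markers passed the filter, with a summed level of at most 1.81 FPKM. The share of reads from the mitochondrial chromosome was 19.7% to 25.1% in WT_ND, 11.9% to 14.0% in DMD_ND and 14.4% to 17.0% in DMD_KD, and 30 of its 34 tested genes were lower in DMD_ND. The part of these shifts in the carriers' differences was not tested.

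The adenine nucleotide carriers moved in opposite directions. Slc25a4 (chr16:46072939-46076733, plus strand, mRatBN7.2) read 4543, 3870, 4617 and 3493 FPKM in WT_ND 1, 3, 4 and 9. Its lowest, median and highest values were 1126, 1554 and 1802 FPKM in DMD_ND and 1480, 1966 and 2612 in DMD_KD. Every mutant library lay below every wild-type library, and Slc25a4 fell by 1.47 ± 0.18 on the log2 scale (SE) in DMD_ND against WT_ND (limma, adjusted p = 1.48e-06). Slc25a5 (chrX:116031803-116034967, plus strand, mRatBN7.2), the ADP/ATP carrier known from proliferating cells, read 18.9, 21.6, 24.5 and 18.3 FPKM in WT_ND 1, 3, 4 and 9. It read 41.7, 44.2 and 68.9 FPKM (lowest, median, highest) in DMD_ND and 35.7, 37.3 and 47.6 in DMD_KD. All mutant libraries lay above all wild-type ones, and Slc25a5 rose by 1.18 ± 0.14 (adjusted p = 1.82e-06). A gene listed as Slc25a6 reached at most 0.439 FPKM. Another row described as similar to Slc25a5 held 0.257 to 1.16 FPKM. Reads of such close copies cannot be assigned with certainty.

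The 250 bases before the RefSeq start of Slc25a4 and Slc25a5 are shown because the pair moved in opposite directions, and those of Slc25a20 and Slc25a42 because these members alone had no overlap between the 2 diets (0.842% of all tested genes were higher in DMD_KD without overlap). Capitals mark the letters of 3 motifs, searched on both strands: the TATA box core with the letters TATAA, the box named for its letters CCAAT, and the GC box with the letters GGGCGG. Where a motif lies on the minus strand its reverse complement is in capitals, and no motif overlaps another here. All are on the plus strand of GRCr8, a later build than that of the deposited table.
Slc25a4, chr16:52805271-52805520: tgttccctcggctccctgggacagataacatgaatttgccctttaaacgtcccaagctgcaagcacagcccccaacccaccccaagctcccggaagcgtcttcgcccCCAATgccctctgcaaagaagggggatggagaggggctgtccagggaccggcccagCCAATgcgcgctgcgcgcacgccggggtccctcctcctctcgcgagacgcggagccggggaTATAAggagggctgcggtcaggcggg
Slc25a5, chrX:120897366-120897615: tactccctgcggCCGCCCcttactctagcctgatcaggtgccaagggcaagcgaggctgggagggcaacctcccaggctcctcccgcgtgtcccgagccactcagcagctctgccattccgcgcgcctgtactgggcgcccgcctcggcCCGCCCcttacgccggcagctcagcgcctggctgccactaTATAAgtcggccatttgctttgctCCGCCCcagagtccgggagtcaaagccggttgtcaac
Slc25a20, chr8:118243323-118243572: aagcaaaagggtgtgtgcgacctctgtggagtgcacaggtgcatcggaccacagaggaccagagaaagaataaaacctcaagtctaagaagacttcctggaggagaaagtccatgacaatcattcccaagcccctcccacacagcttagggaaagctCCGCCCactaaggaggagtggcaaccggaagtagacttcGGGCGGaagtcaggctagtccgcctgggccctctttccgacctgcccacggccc
Slc25a42, chr16:19247724-19247973: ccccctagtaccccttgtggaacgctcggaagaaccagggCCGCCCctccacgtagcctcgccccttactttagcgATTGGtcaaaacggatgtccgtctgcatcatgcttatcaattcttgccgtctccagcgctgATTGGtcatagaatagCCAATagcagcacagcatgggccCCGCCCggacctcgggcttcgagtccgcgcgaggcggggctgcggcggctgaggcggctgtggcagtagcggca

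In these letters Slc25a4 held a TATAA that starts 26 bases before the gene start and CCAAT at 87 and 143 bases before it. Slc25a5 held a TATAA at 61 bases before the start and 3 GC boxes, at 37, 101 and 238 bases, with no CCAAT. Slc25a20 held 2 GC boxes, at 54 and 93 bases, and Slc25a42 held 3 CCAAT boxes and 2 GC boxes. A window of the same length was found for 35 of the 43 members, 1 window each, out of 33469 windows in the RefSeq table. A CCAAT box was in 57.1% of the member windows and 34% of all windows, a GC box in 51.4% and 30.5%, and TATAA in 11.4% and 24%. The 2 sets also differed in base composition, with a median of 13 CG letter pairs in member windows and 5 in all windows. Its part in these shares was not tested. The nuclear receptor half-site AGGTCA, searched on both strands like the others, was in 11.4% of member windows and 14.1% of all. Of the 15 members lower in DMD_ND that had a window 11 held a CCAAT box, as did 3 of the 6 higher ones. These counts describe letters, not sites in use.

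The calcium-regulated ATP-Mg/phosphate carriers Slc25a23, Slc25a24 and Slc25a25 adjust the adenine nucleotide pool of the matrix, and they split. Slc25a24 (chr2:196761274-196799231, plus strand, mRatBN7.2) read 0.468, 0.746, 0.580 and 0.823 FPKM in WT_ND 1, 3, 4 and 9. In DMD_ND its lowest, median and highest values were 4.36, 5.31 and 6.58 FPKM, and in DMD_KD 2.61, 4.46 and 5.82. No mutant library came near the wild-type range, and the log2 difference of DMD_ND from WT_ND was 1.92 ± 0.15 (SE; adjusted p = 1.18e-08), for a gene tested only through its mutant libraries. Slc25a25 (chr3:15708703-15742216, minus strand, mRatBN7.2) read 24.2, 36.9, 55.8 and 29.0 FPKM in WT_ND 1, 3, 4 and 9, against 5.02, 8.35 and 17.3 in DMD_ND. It fell by 1.80 ± 0.32, the largest fall of any member, with no overlap but with the widest standard error (adjusted p = 1.11e-04). Slc25a23 read 19.4, 23.7, 15.3 and 17.4 FPKM in the same WT_ND libraries, 8.06, 9.65 and 12.2 in DMD_ND and 8.52, 10.5 and 12.9 in DMD_KD, and was lower by -0.88 ± 0.15 (adjusted p = 6.54e-05). Under TPM Slc25a23 stood at 0.06 with no call.

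The carriers of dicarboxylates and tricarboxylates also split. Slc25a11, which exchanges oxoglutarate for malate in the malate-aspartate shuttle, read 426, 295, 402 and 260 FPKM in WT_ND 1, 3, 4 and 9. Its lowest, median and highest values were 114, 140 and 147 FPKM in DMD_ND and 136, 157 and 250 in DMD_KD. Wild type lay above both mutant groups, which overlapped each other, and the difference of DMD_ND from WT_ND was -1.33 ± 0.18 (adjusted p = 5.31e-06). Slc25a1, which exports citrate for lipid synthesis, read 0.860, 1.10, 1.17 and 0.919 FPKM in WT_ND 1, 3, 4 and 9, but 2.67, 3.29 and 3.95 in DMD_ND and 2.82, 3.01 and 3.97 in DMD_KD. Its log2 difference was 1.08 ± 0.11 (adjusted p = 2.24e-07), without overlap with wild type in either mutant group. Slc25a1 too passed the filter only through its mutant libraries. Slc25a10, the dicarboxylate carrier, rose by 0.43 ± 0.13 (adjusted p = 0.00749), a call that was lost without WT_ND 1 and 4 (0.31, adjusted p = 0.122).

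Slc25a20 (chr8:109365002-109386512, plus strand, mRatBN7.2), which brings acylcarnitines into the matrix for fat oxidation, was lower in the mutant. It read 111, 77.9, 102 and 69.5 FPKM in WT_ND 1, 3, 4 and 9, then 30.2, 37.1 and 39.4 (lowest, median, highest) in DMD_ND and 40.6, 46.0 and 63.7 in DMD_KD. The 3 groups did not overlap, with WT_ND highest and DMD_ND lowest, and Slc25a20 fell by 1.28 ± 0.15 in DMD_ND against WT_ND (adjusted p = 1.49e-06). Slc25a45, also tested only through its mutant libraries, read 0.648, 0.717, 0.804 and 0.630 FPKM in WT_ND 1, 3, 4 and 9, 0.985, 1.31 and 1.68 in DMD_ND and 0.874, 1.11 and 1.298 in DMD_KD, with a log2 difference of 0.44 ± 0.10 (adjusted p = 7.36e-04). Slc25a29, a carrier of basic amino acids, read 6.24, 5.19, 7.23 and 4.92 FPKM in WT_ND 1, 3, 4 and 9, 2.34, 4.18 and 5.82 in DMD_ND and 3.11, 3.65 and 6.05 in DMD_KD. Its groups overlapped. Its difference of -0.44 ± 0.19 barely passed (adjusted p = 0.0444) and was not called when any of WT_ND 1, WT_ND 4, DMD_ND 3, 5, 7 or 11, or DMD_KD 1, 5 or 7 was left out (adjusted p = 0.0511 to 0.140).

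Among 8 tested carriers of amino acids and glutathione 5 were lower, 1 higher and 2 not called, and under TPM the uncalled Slc25a22 and Slc25a40 were higher. Slc25a12, the calcium-stimulated aspartate/glutamate carrier of muscle and brain, read 167, 149, 143 and 100.1 FPKM in WT_ND 1, 3, 4 and 9. In DMD_ND its values were 36.7, 56.2 and 61.2 FPKM and in DMD_KD 59.0, 71.4 and 85.0. Wild type lay above all mutant libraries, and Slc25a12 fell by 1.38 ± 0.17 (adjusted p = 1.60e-06). Its paralog Slc25a13, known as citrin and abundant in liver, read 0.508, 0.595, 0.315 and 0.570 FPKM in WT_ND 1, 3, 4 and 9, 1.06, 1.21 and 2.14 in DMD_ND and 0.770, 1.26 and 1.36 in DMD_KD. It differed by 0.64 ± 0.12 without overlap with wild type (adjusted p = 1.75e-04), again tested only through its mutant libraries. The ornithine carrier Slc25a15 read 6.67, 6.07, 6.19 and 4.71 FPKM in WT_ND 1, 3, 4 and 9, 2.15, 2.38 and 2.90 in DMD_ND and 2.44, 3.38 and 4.14 in DMD_KD, and fell by 1.002 ± 0.11 (adjusted p = 8.75e-07). Slc25a38, which carries glycine for heme synthesis, and Slc25a44, which carries branched-chain amino acids, fell by 1.27 ± 0.18 and by 0.74 ± 0.11 (adjusted p = 8.90e-06 and 1.18e-05).

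Of the glutathione carriers Slc25a39 was called lower and Slc25a40 was not called, with no test between them. Slc25a39 read 44.9, 22.7, 40.3 and 21.7 FPKM in WT_ND 1, 3, 4 and 9, 14.9, 16.3 and 19.7 in DMD_ND and 15.5, 17.7 and 34.1 in DMD_KD. WT_ND 1 and 4 stood well above WT_ND 3 and 9, and the difference of -0.84 ± 0.22 (adjusted p = 0.00261) was -0.39 (adjusted p = 0.142) without WT_ND 1 and 4. Slc25a40 read 0.927, 1.42, 0.873 and 1.14 FPKM in WT_ND 1, 3, 4 and 9, 0.903, 1.06 and 1.27 in DMD_ND and 0.594, 0.852 and 1.19 in DMD_KD, with overlapping groups and a log2 difference of -0.01 ± 0.10 (adjusted p = 0.932). The glutamate carrier Slc25a22 differed by -0.28 ± 0.13 (adjusted p = 0.0696). Without DMD_ND 9 or without DMD_KD 3 it was called lower (adjusted p = 0.0323 and 0.0344).

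Carriers of cofactors and nucleotides were lower or not called, and none of the 7 tested was higher on the deposited scale, while Slc25a17 was called higher under TPM. Slc25a42 (chr16:19213950-19237025, plus strand, mRatBN7.2), which imports coenzyme A into the matrix, read 22.9, 29.8, 22.3 and 26.7 FPKM in WT_ND 1, 3, 4 and 9. Its lowest, median and highest values were 7.57, 9.74 and 10.9 FPKM in DMD_ND and 12.5, 15.6 and 17.9 in DMD_KD. The 3 groups did not overlap, and Slc25a42 fell by 1.33 ± 0.13 in DMD_ND against WT_ND (adjusted p = 1.34e-07). Under TPM the difference was -0.39 and not called (adjusted p = 0.0746). Slc25a17, a coenzyme A carrier of peroxisomes, read 26.2, 27.1, 27.0 and 27.6 FPKM in WT_ND 1, 3, 4 and 9, 19.9, 23.5 and 24.5 in DMD_ND and 13.5, 21.5 and 22.6 in DMD_KD. Wild type lay above both mutant groups, which overlapped each other, yet the difference of -0.23 ± 0.12 was not called (adjusted p = 0.117). The same difference was called with DMD_KD 3, its lowest library, out of the shared estimate of spread (adjusted p = 0.0145).

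Slc25a26, which imports S-adenosylmethionine, fell by 0.85 ± 0.14 (adjusted p = 4.72e-05). The folate carrier Slc25a32 was lower by -0.39 ± 0.12 (adjusted p = 0.00775). The pyrimidine nucleotide carrier Slc25a33 differed by -0.45 ± 0.18 (adjusted p = 0.0329) and Slc25a36 by -0.36 ± 0.25 (adjusted p = 0.226). The calls of Slc25a32 and Slc25a33 were lost without WT_ND 3 and 9 (adjusted p = 0.102 and 0.223). That of Slc25a33 was also lost when WT_ND 4, WT_ND 9 or DMD_ND 3, 7 or 11 was left out (adjusted p = 0.0508 to 0.138). Without WT_ND 1 and 4 Slc25a36 was called lower (-0.84, adjusted p = 0.0156).

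The mitoferrins, which carry iron for heme and iron-sulfur clusters, moved apart. Slc25a28, the widely expressed form, read 43.0, 26.5, 48.2 and 20.7 FPKM in WT_ND 1, 3, 4 and 9, 15.6, 17.5 and 20.7 in DMD_ND and 17.7, 18.9 and 27.2 in DMD_KD. WT_ND 1 and 4 were again the high ones, and the difference of -0.83 ± 0.19 (adjusted p = 9.04e-04) became -0.37 without them (adjusted p = 0.0545). Slc25a37, known from red cell precursors, read 1.16, 1.58, 1.19 and 1.56 FPKM in WT_ND 1, 3, 4 and 9, 2.56, 3.11 and 4.16 in DMD_ND and 1.34, 2.80 and 3.08 in DMD_KD. It rose by 0.83 ± 0.14 in DMD_ND (adjusted p = 7.79e-05). Both red cell markers that were tested were lower in DMD_ND on the deposited scaling. The summed red cell markers read 44.9 to 112 FPKM in WT_ND, 22.97 to 38.1 in DMD_ND and 16.9 to 171.5 in DMD_KD. Their part in the Slc25a37 difference was not tested.

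Slc25a30, a carrier related to the uncoupling proteins, read 14.1, 11.8, 12.6 and 11.2 FPKM in WT_ND 1, 3, 4 and 9, 4.10, 7.57 and 11.2 in DMD_ND and 6.53, 10.4 and 19.4 in DMD_KD. One DMD_ND library overlapped wild type, and the difference of -0.78 ± 0.26 (adjusted p = 0.0152) was not called without WT_ND 1 and 4 (-0.68, adjusted p = 0.111). Slc25a46, an outer membrane protein tied to mitochondrial shape, read 10.8, 19.9, 11.9 and 17.2 FPKM in WT_ND 1, 3, 4 and 9, 11.4, 13.2 and 13.9 in DMD_ND and 6.01, 12.3 and 13.6 in DMD_KD, with no call (-0.16 ± 0.19, adjusted p = 0.470). Slc25a35, whose substrate is not settled, read 3.77, 2.999, 3.93 and 3.01 FPKM in WT_ND 1, 3, 4 and 9, 1.80, 2.06 and 2.59 in DMD_ND and 2.44, 2.497 and 2.83 in DMD_KD. It fell by 0.52 ± 0.09 (adjusted p = 1.18e-04), and neither mutant group overlapped wild type.

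Within sets of paralogs the less abundant form took a larger share in mutant muscle. The share of Slc25a5 in the summed FPKM of Slc25a4 and Slc25a5 was 0.414% to 0.554% in WT_ND, 2.37% to 4.45% in DMD_ND and 1.35% to 2.96% in DMD_KD. Slc25a13 made up 0.219% to 0.566% of Slc25a12 plus Slc25a13 in WT_ND, 1.79% to 3.69% in DMD_ND and 0.897% to 2.08% in DMD_KD. No wild-type library reached a mutant one in either pair, and a share within a library does not depend on how libraries are scaled. Slc25a24 took 0.809% to 1.74% of its set of 3 in WT_ND, 17.4% to 29.95% in DMD_ND and 5.37% to 20.04% in DMD_KD. Slc25a37 took 2.42% to 6.98% of the mitoferrins in WT_ND, 11% to 19.3% in DMD_ND and 4.71% to 14.2% in DMD_KD. DMD_KD 3 gave the lowest DMD_KD value of Slc25a37 and the only overlap with wild type there. The Slc25a40 share of the glutathione pair overlapped among the groups, at 2.03% to 5.88%, 5.02% to 7.26% and 1.72% to 7.12%. These shares are descriptions with no test.

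**Figure D3:**
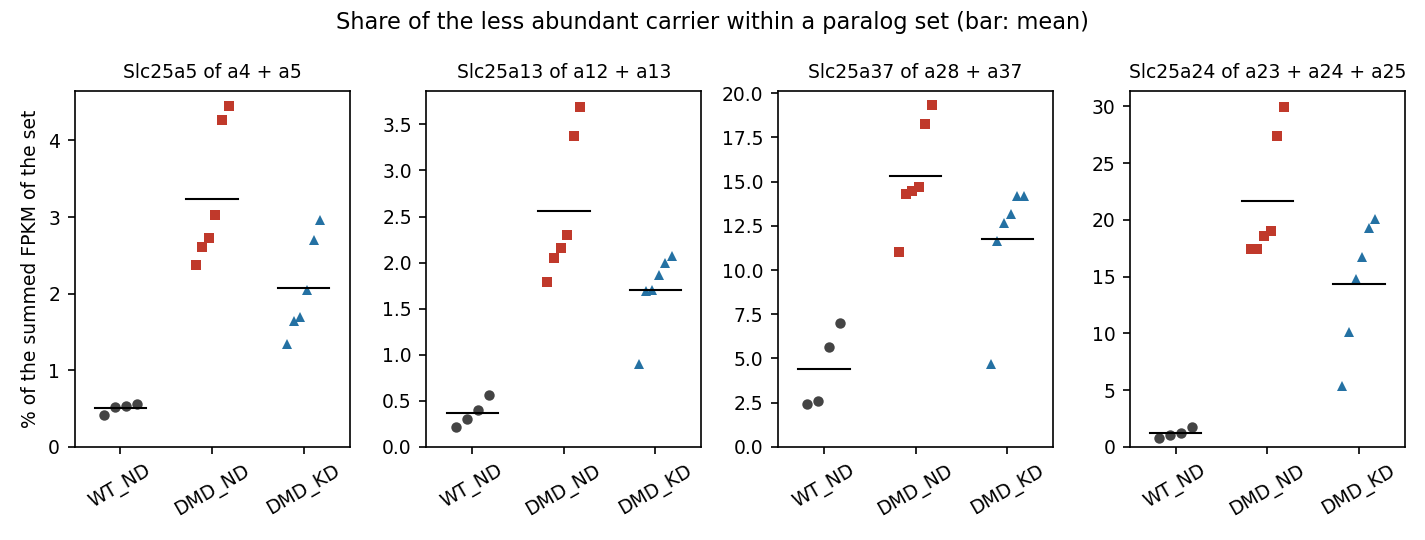
Share of the less abundant carrier in the summed FPKM of its paralog set, in percent, 1 point per library with the group mean as a bar (WT_ND n = 4, DMD_ND n = 6, DMD_KD n = 6). The 4 sets drawn leave out the glutathione pair. All WT_ND points lie under all DMD_ND points in these panels, for example at most 0.554% against at least 2.37% for Slc25a5.

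The ketogenic diet left no member past the threshold. Of the 31 tested members 0 were called in DMD_KD against DMD_ND by limma at an adjusted p of 0.05, with 0.00825% of all tested genes called higher (1 gene, no member) and 0% lower. At an unadjusted p under 0.05 there were 8 members, against 14.3% of all tested genes, and limma with library weights called 1 member higher, against 0.421% of all tested genes. The median member stood at 0.14 on the log2 scale and the median gene at -0.01. Without DMD_KD 3 the members' median was 0.06, and under TPM it was -0.11 where the median gene was -0.24. The same DMD_ND libraries serve in the comparison with wild type, so the values of the 2 comparisons are set side by side without a test between them.

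Slc25a42 had the smallest p. Its 6 DMD_ND libraries lay between 7.57 and 10.9 FPKM and its 6 DMD_KD libraries between 12.5 and 17.9, so the diets did not overlap. The log2 difference was 0.64 ± 0.11 (SE; limma, adjusted p = 0.132), beside a fall of 1.33 in DMD_ND against WT_ND. It was called with library weights (0.55, adjusted p = 0.0280) and without DMD_KD 9 (0.69, adjusted p = 0.0403). Over all 24 alternatives the adjusted p ran from 0.0280 to 0.311, and without DMD_KD 3 the difference was 0.60. Slc25a20 was the other member without overlap between diets, with at most 39.4 FPKM in DMD_ND and at least 40.6 in DMD_KD (0.38 ± 0.14, adjusted p = 0.248). Without DMD_KD 3, its highest library at 63.7 FPKM, the difference was 0.30 (adjusted p = 0.367, range over alternatives 0.137 to 0.507).

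The other 4 members with the smallest p were also higher on the ketogenic diet and not called. Slc25a15 differed by 0.34 ± 0.10 (adjusted p = 0.210) and Slc25a12 by 0.43 ± 0.15 (adjusted p = 0.241), each with overlapping libraries. Slc25a25 ranged from 10.8 to 33.0 FPKM in DMD_KD against 5.02 to 17.3 in DMD_ND, with a difference of 0.79 ± 0.29 (adjusted p = 0.256) that was 0.60 without DMD_KD 3. Slc25a4 differed by 0.40 ± 0.16 (adjusted p = 0.274), and by 0.13 under TPM. Slc25a35 (0.21) and Slc25a30 (0.57) completed the 8 at an unadjusted p under 0.05, with adjusted p = 0.293 and 0.301. Slc25a5 and Slc25a24, both higher in the mutant, differed by -0.27 ± 0.13 and -0.25 ± 0.13 between diets (adjusted p = 0.351 and 0.390). None of the fibre, macrophage, fibroblast or adipocyte markers was called between the diets. Their median log2 differences were 0.47 for fibre markers, -0.17 for macrophage, -0.38 for fibroblast and -0.79 for adipocyte markers, and their part in the carriers' differences was not tested.

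The remaining members lay between -0.25 and 0.31 on the log2 scale for DMD_KD against DMD_ND, with standard errors of 0.09 to 0.23. Among them were Slc25a1 (-0.01), a10 (-0.13), a11 (0.31), a13 (-0.09), a17 (-0.20), a22 (0.07), a23 (0.10), a26 (0.05), a28 (0.15), a29 (-0.04), a32 (-0.02), a33 (0.15), a36 (0.14), a37 (-0.25), a38 (0.16), a39 (0.19), a40 (-0.15), a44 (0.20), a45 (-0.14) and a46 (-0.24). A missed threshold does not show that the diet left them alike.

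**Figure D4:**
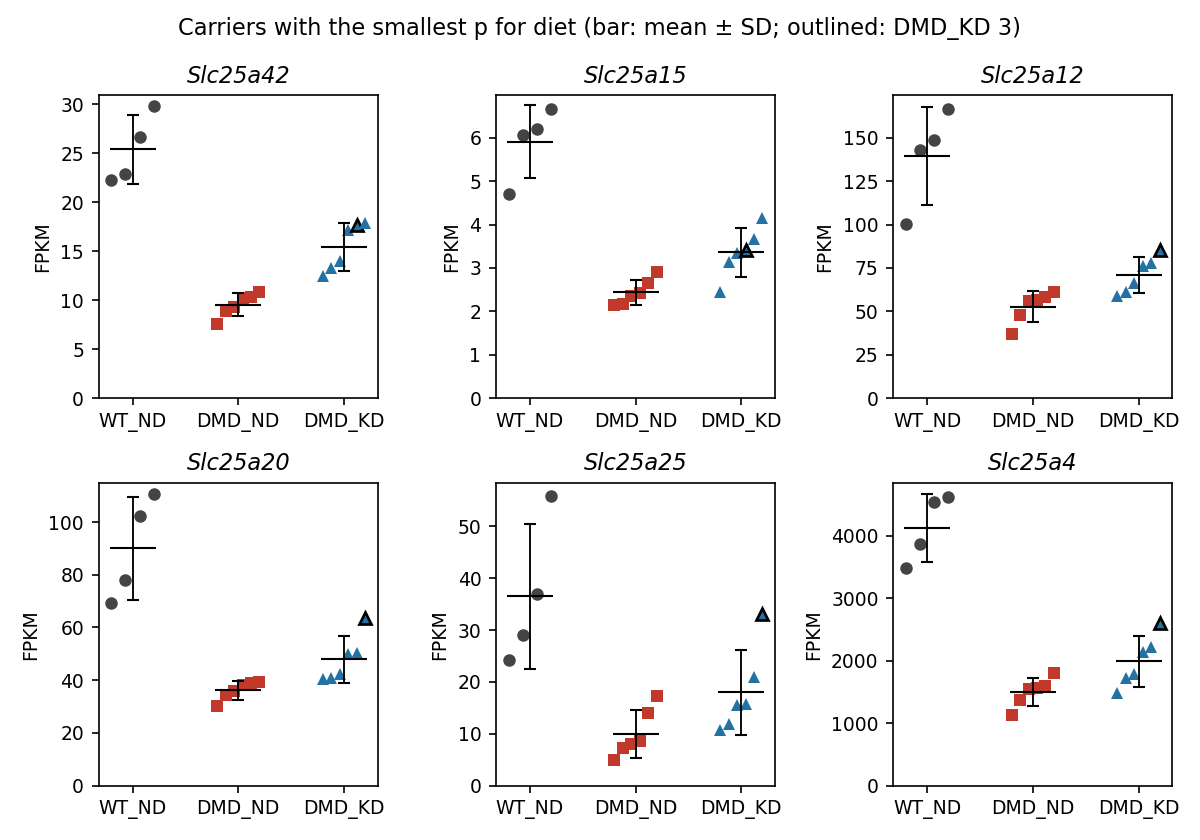
FPKM per library of the 6 carriers with the smallest p for DMD_KD against DMD_ND, 1 point per library with mean ± SD (WT_ND n = 4, DMD_ND and DMD_KD n = 6 each) and DMD_KD 3 outlined. For Slc25a42 the DMD_KD points (12.5 to 17.9) lie between the DMD_ND points (at most 10.9) and the WT_ND points (at least 22.3), and for Slc25a25 DMD_KD 3 is the highest of its group at 33.0.

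Against wild type, mutant muscle on the ketogenic diet had 18 members lower, 6 higher and 7 not called. Over all tested genes 31.1% were lower and 27.3% higher. The median member stood at -0.43. This comparison uses the same WT_ND libraries as that of DMD_ND, and the values of both are given side by side. Slc25a4 stood at -1.07 ± 0.18 against wild type in DMD_KD and at -1.47 in DMD_ND. Slc25a42 stood at -0.69 ± 0.13 and -1.33, and Slc25a20 at -0.89 ± 0.15 and -1.28. Slc25a24 stood at 1.67 ± 0.15 and 1.92, and Slc25a5 at 0.91 ± 0.14 and 1.18. Slc25a1 was at 1.07 and 1.08, Slc25a38 at -1.11 and -1.27, and Slc25a11 at -1.02 and -1.33. Under TPM 3 members were lower in DMD_KD, namely Slc25a4, a11 and a38, against 4.73% of all tested genes, and the members' median was 0.26 with the median gene at 0.56.

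Several of these calls rested on few libraries. Slc25a25 stood at -1.01 ± 0.32 in DMD_KD against WT_ND (adjusted p = 0.0131) and was not called without WT_ND 4 (-0.78, adjusted p = 0.0609). The call of Slc25a39 was lost without WT_ND 1 or WT_ND 4 (adjusted p = 0.0818 and 0.0686). That of Slc25a29 was lost without any 1 of WT_ND 1, WT_ND 4 and DMD_KD 1, 7, 9 and 10 (adjusted p = 0.0513 to 0.110). Slc25a10 was not called (0.30, adjusted p = 0.0534) but passed without WT_ND 3, DMD_ND 9 or DMD_KD 5 or 10 (0.0308 to 0.0403). Slc25a33 and Slc25a46 were called lower without WT_ND 1 (adjusted p = 0.0162 and 0.0342). Slc25a37 was called higher (0.58 ± 0.14, adjusted p = 0.00230), and its lowest DMD_KD library, DMD_KD 3 at 1.34 FPKM, overlapped wild type. Without WT_ND 1 and 4, 6 members were higher and 14 lower in DMD_KD, 12 of them among the 18. Over all 11977 genes tested without these libraries, 3012 were higher and 2733 lower, against 3304 and 3764 of 12119 with them. The calls of Slc25a28 (-0.22, adjusted p = 0.258), a35 (-0.17, 0.194), a39 (-0.19, 0.481), a29 (-0.31, 0.293) and a25 (-0.92, 0.0666) were among those lost without WT_ND 1 and 4. Slc25a36 (-0.70, 0.0436) and a46 (-0.73, 0.0107) were then called. Without WT_ND 3 and 9 the calls of Slc25a45 (0.28, adjusted p = 0.0770) and a32 (-0.31, 0.0861) were lost, and Slc25a10 was called higher (0.43, 0.0350).

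Other genes of carrier biology were counted from lists, beside 31.5% higher and 34.3% lower over all tested genes in DMD_ND against WT_ND. Among 4 tested relatives with other names 2 were higher in DMD_ND than in WT_ND, 1 lower and 1 not called. The uncoupling protein gene Ucp2 rose from 4.65 ± 0.79 FPKM (SD, n = 4) to 21.3 ± 4.67 (n = 6), Mtch2, an outer membrane insertase, fell from 82.4 ± 15.7 to 46.3 ± 2.85, and Mtch1 rose from 44.6 ± 9.08 to 57.9 ± 6.70 (adjusted p = 0.0489). Of 8 tested genes for the import of carrier proteins 1 was higher, 4 were lower and 3 were not called. Timm8b, a small intermembrane-space chaperone, fell from 284 ± 77.6 to 140 ± 14.4 FPKM, its relative Timm8a1 from 17.9 ± 2.90 to 12.5 ± 0.96, and the outer membrane receptor Tomm70 from 23.6 ± 7.44 to 15.3 ± 2.03. Of 12 other genes of mitochondrial metabolite transport 8 were lower and 3 higher. The porin Vdac1 fell from 163 ± 24.9 to 52.2 ± 5.91 FPKM, Cpt2, which hands acyl groups from carnitine to coenzyme A, from 70.1 ± 15.4 to 20.4 ± 2.32, and the pyruvate carrier subunit Mpc1 from 76.2 ± 10.8 to 29.6 ± 3.39. Of 8 genes of mitochondrial calcium transport 3 were higher and 4 lower. The sodium/calcium exchanger gene Slc8b1 rose from 0.773 ± 0.122 to 5.15 ± 0.69 FPKM and the uniporter's inhibitory subunit Mcub from 0.0756 ± 0.119 to 1.49 ± 0.49. Both had wild-type means under 1 FPKM and passed the filter only through the mutant libraries, so their rises are descriptions. Letm1 fell from 27.8 ± 5.57 to 13.1 ± 1.06. No gene of these 4 lists was called between the diets. All values of these lists are on the deposited scaling. Under TPM the median gene stood 0.83 higher in DMD_ND than in WT_ND, so the smaller falls may not hold there.

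The 12 members below the filter reached at most 0.872 FPKM in any library. They were Slc25a27, a18, a6, a47, a21, a53, a48, a52, a54, a41, a31 and a2. The neuronal uncoupling-protein relative Slc25a27 was the most abundant of them at 0.202 to 0.551 FPKM. The liver carrier Slc25a47 read 0 FPKM in WT_ND 1, 3 and 4 and up to 0.872 in DMD_ND. Slc25a31, the ADP/ATP carrier of testis, and the ornithine carrier Slc25a2 had no read in any of the 16 libraries, which allows up to 3 reads per library.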

How the data were processed

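The authors deposited 1 table of FPKM values per gene for 16 libraries of tibialis anterior poly-A RNA, with symbols, positions and gene lengths, per the file headers. Per the submitters' processing notes the tools were HISAT2 2.0.5 and featureCounts 1.5.0-p3, on the build mRatBN7.2. The sources used here do not say how strand and multi-mapping reads were treated. Overlapping genes and close copies may therefore share reads. Multiplying FPKM by gene length gave whole reads for 100% of values (within 0.05), and the library size behind them was proportional to a median-of-ratios size factor, so the deposited FPKM were already scaled between libraries. The values of 1 tested member are not reported here, although counts and sums include it. Columns and groups were matched by name and labels.

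The tests used log2(FPKM + 1) in limma 3.58.1 (R 4.3.3; eBayes with trend and robust), in 1 model of group means over all 16 libraries, for genes of at least 1 FPKM in at least 4 libraries. Two-sided p-values were corrected by the Benjamini-Hochberg method over all 12119 tested genes, and calls had an adjusted p under 0.05. A fold change on this scale understates the change of low genes. The fit was tested on simulated data. Alternatives were other pseudocounts, no filter, TPM, library weights, the replicate number as a block and each library left out. Leaving out WT_ND 1 with 4, or 3 with 9, was added after seeing the data. The members, gene lists and named genes (by class, level, fold change and p) were chosen with earlier results of these data known. Promoter windows come from RefSeq (GRCr8). The closest libraries of a group differed by a chi-square of 11.7 per degree of freedom, more than counting error. This does not tell libraries of 1 rat from libraries of different rats.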

Additional observations from a re-analysis of the deposited data

Results flagged for a closer look

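In 8 of 93 groups of values (31 tested members in 3 groups of libraries) the highest or lowest library stood far from the rest of its group, where chance gives about 1 in 20. DMD_KD 3 was that library in 6 of the 8. Its values were the highest of DMD_KD for the mitoferrin Slc25a28 (27.2 FPKM, others 17.7 to 19.9), the glutathione carrier Slc25a39 (34.1, others 15.5 to 18.5) and Slc25a29 (6.05, others 3.11 to 4.05). They were the lowest for Slc25a17 (13.5 FPKM, others 19.6 to 22.6), Slc25a37 (1.34, others 2.62 to 3.08) and Slc25a13 (0.770, others 1.25 to 1.36). In DMD_ND the highest values of Slc25a22 (4.15 FPKM in DMD_ND 9, others 2.80 to 3.28) and of Slc25a13 (2.14 FPKM in DMD_ND 11, others 1.06 to 1.41) stood apart.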

How the results depend on the processing

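Scaling mattered most. Under TPM, DMD_ND against WT_ND gave 12 members higher and 6 lower with a median of 0.34, DMD_KD against DMD_ND a median of -0.11, and DMD_KD against WT_ND 3 lower with a median of 0.26. Among the members then pointing up in DMD_ND against WT_ND were Slc25a17 (0.76), a22 (0.56), a23 (0.060), a28 (0.14), a29 (0.42), a30 (0.13), a32 (0.48), a33 (0.46), a35 (0.25), a39 (0.14), a40 (0.63), a44 (0.11) and a46 (0.80). In DMD_KD against WT_ND they included Slc25a17 (0.29), a28 (0.035), a29 (0.14), a32 (0.22), a35 (0.27), a39 (0.068), a42 (0.017) and a44 (0.090). In 43 further cases a value called under neither setting changed sign and was counted as no change. The median for DMD_ND against WT_ND was -0.65 and -0.60 with pseudocounts of 0.1 and 0.5, -0.28 without the filter (41 members) and -0.66 without WT_ND 3 and 9. For DMD_KD against DMD_ND it was 0.032 without the filter and 0.061 with library weights. For DMD_KD against WT_ND it was -0.22 without the filter. Library weights gave 1 call between the diets, Slc25a42. With 1 library left out at a time, DMD_ND against WT_ND gave 7 higher and 17 to 21 lower (median -0.57 to -0.49), DMD_KD against WT_ND 6 to 7 and 14 to 18 (-0.47 to -0.36), and DMD_KD against DMD_ND 0 to 1 higher and 0 lower (0.058 to 0.17). The same fits over all genes gave 3618 to 4036 higher and 3723 to 4440 lower in DMD_ND against WT_ND. For DMD_KD against WT_ND they gave 3080 to 3592 and 3197 to 4126. Over all genes TPM called 8564 higher and 720 lower in DMD_ND against WT_ND (3815 and 4152 as deposited) and 6930 and 573 in DMD_KD against WT_ND (3304 and 3764). Between the diets 51 genes were higher and 42 lower with library weights, and 5 and 2 without DMD_KD 9, against 1 and 0. The cause of these changes was not tested. The least abundant tested value rests on 14 reads, which limits its precision.

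The labels name no pairing by replicate number. Deviations of same-numbered libraries correlated at -0.656 to 0.407. Differently numbered libraries were not compared in this way, so pairing was neither shown nor excluded. With the number as a replicate block, 7 members were higher and 13 lower in DMD_ND against WT_ND, 5 and 12 in DMD_KD against WT_ND, and 0 between the diets. Over all genes the block gave 3079 higher and 2773 lower in DMD_ND against WT_ND (3815 and 4152 without it), and 2725 and 2465 in DMD_KD against WT_ND (3304 and 3764).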
